A study of Mus musculus with 9 samples.

Results

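A 10 Mb stretch of mouse chromosome 12 (18 to 28 Mb, GRCm38) held CTCF peaks at which the MommeD43-GFP neural stem cells (NSCs) gave no ChIP-seq reads at all. Its members are the 895 peaks, of 225769 in the merged set, that overlap chr12:18000000-28000000. The stretch was picked because several of its peaks lacked reads in MommeD43-GFP NSCs, so the MommeD43-GFP values below describe the choice and are no test of it. CTCF is a zinc finger protein that binds a long DNA motif, stops loop extrusion by cohesin and so marks insulators and the borders of chromatin domains. SMCHD1, an atypical member of the SMC family, helps to keep the inactive X and some autosomal gene clusters silent, and its loss has been tied to changes in CTCF binding. The proximal part of the stretch is rich in pseudogenes and repeated sequence, and genes with well known functions lie mostly in a few islands within it.

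CTCF ChIP-seq was performed in primary NSCs grown from the cortex of female C57Bl/6 embryos at E14.5. The 3 MommeD43-GFP lines were homozygous for the MommeD43 missense allele, which had been recreated by CRISPR on a GFP-tagged Smchd1 allele. The 2 Smchd1 del/del lines carried an untagged floxed allele deleted in culture by a Cre retrovirus with puromycin selection. The 3 Smchd1 GFP/GFP control lines were homozygous for the tagged allele alone, and 1 input library came from such a line. The tag is thus shared by the control and the point mutant but not by the null, and the Cre virus was used in the null only. The table gives 1 value per genotype at each peak, the authors' mean over libraries of log2 RPM (reads scaled to 1 M reads in a library), with no SD or n, and no value for the input. No difference could therefore be set against the spread between lines, and none carries a p-value.

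The geometric mean library size read from the steps between low values was 49.2 M reads in MommeD43-GFP, 50 M in Smchd1 del/del and 41.7 M in control NSCs. At the median peak of the stretch this left 27.1 reads per library in MommeD43-GFP, 29.6 in the null and 24.8 in control NSCs. Counting error at the median peak was 0.16 in MommeD43-GFP, 0.19 in Smchd1 del/del and 0.17 in control on the log2 scale, and it covers the counting of reads only. CTCF occupancy does not mark a cell type, so the NSC label could not be checked here.

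Motif sites of lowered peaks are shown first, with copies of the same site at other peaks and the Rrm2 promoter site, whose peak was not lowered, because some sites stand at peaks that were lowered and at peaks that were not. They are 30 bases of the C57BL/6J reference chromosome 12 (RefSeq, GRCm38.p6), read 5′ to 3′ on the strand given, with the 12 bases matching the relaxed CTCF motif in capitals.
Asap2 first promoter, chr12:20990009-20990038, plus strand: tttcactgtCCTGTAGGGGGCgagctaccc
Asap2 internal promoter, chr12:21111289-21111318, plus strand: tttcactgtCCTGTAGGGGGCgagctaccc
Intergenic peak, chr12:21951421-21951450, minus strand: taaacgtgaCCCCTAGATGGCagtggtgca
Gm49692 intron, chr12:20281625-20281654, plus strand: taaacgtgaCCCCTAGATGGCagtggtgca
5730507C01Rik promoter, chr12:18514215-18514244, plus strand: caccgcagcCCAGGAGAGGGCgcgctctcg
Gm48398, chr12:18606318-18606347, minus strand: aaacaattgCCAGCAGAGGGCagtgtttgt
Gm48641, chr12:19791455-19791484, minus strand: tcaaagcggCCACCAGAGGGCaacagatcc
Rrm2 promoter, chr12:24708667-24708696, plus strand: cttaggctcCCAGTAGAGGGCgcccgctcg

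The first pair is 1 sequence at both Asap2 promoters, and this 30-base site stands 14 times in the stretch. The second pair is also 1 sequence, which stands 10 times. The sites at 5730507C01Rik, Gm48398 and Rrm2 each stand once, and the Gm48641 site 4 times. A match to the motif is a description of the letters and was not tested as a bound site.

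CTCF ChIP-seq values were lower in MommeD43-GFP than in control NSCs at a distinct set of peaks. Over most of the stretch the genotypes were close. The median of MommeD43-GFP less control was -0.10 over the 895 peaks and 0.01 over all peaks of the table. At least 2-fold lower values were found at 95 peaks of the stretch (10.6%), beside 0.718% of all peaks. At least 2-fold higher values were found at 32 peaks (3.58%), beside 2.08% of all peaks. At least 4-fold lower values were found at 43 peaks of the stretch, beside 0.043% of all peaks. These shares were chosen by the rule and nothing is read from them. On the rest of chromosome 12, 96 of 10023 peaks (0.96%) were at least 2-fold lower, and on chromosome 15 from 30 to 40 Mb, another stretch with peaks lacking reads, 49 of 971 were (5.05%). Just inside the 2-fold limit lay a Gm46312 promoter peak at -1.001, and just outside it a peak near Gm9293 at -0.999.

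**Figure D1:**
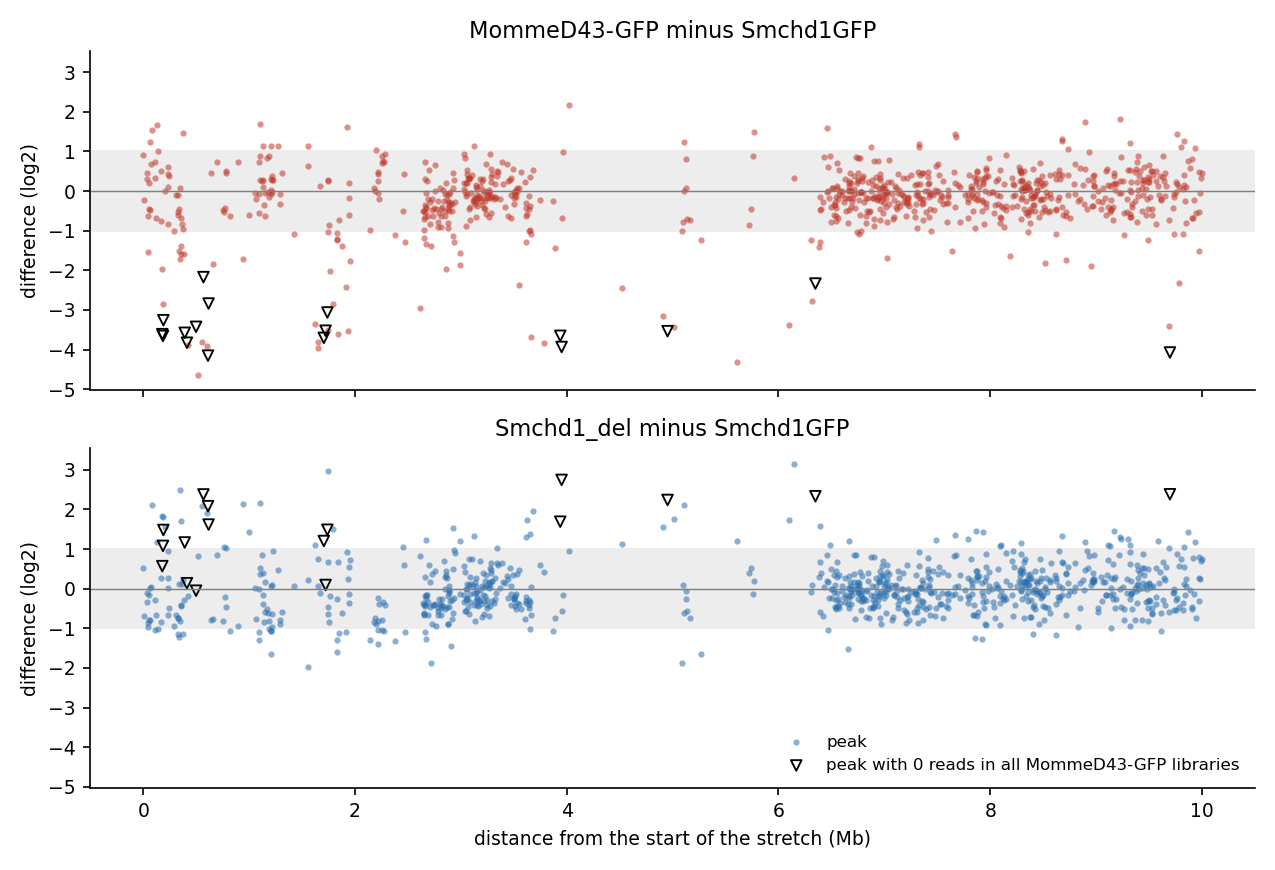
Difference of each of the 895 peaks (vertical axis, log2) by distance from the start of the stretch (horizontal axis, Mb), for MommeD43-GFP less control above and Smchd1 del/del less control below. Grey bands span differences under 2-fold, and triangles are the 17 peaks with 0 reads in every MommeD43-GFP library. The triangles lie far below the band in the upper panel and between -0.05 and 2.75 in the lower one. Both panels use the same control values.

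Peaks without reads came first in the choice of the stretch and are described one by one in the plot of the 17. A value at the lowest step of its column (-5.77 in MommeD43-GFP) means 0 reads in every library of the genotype. All 3 MommeD43-GFP libraries had 0 reads at 17 peaks of the stretch, of 33 such peaks in the table (0.0146% of all peaks). Neither Smchd1 del/del nor control NSCs had a peak in the stretch with 0 reads in every library, beside 0.00133% and 0.00221% of all peaks in the table. None of the 17 had a control value at or above the median level of all peaks (-0.53, as the mean over the 3 genotypes). Their values ran over -2.40 to 0.91 in Smchd1 del/del NSCs and over -3.60 to -1.62 in control NSCs. With MommeD43-GFP set to a floor of 3 reads over its 3 libraries, the 17 were at least 4.05-fold to at least 16.0-fold lower than control, and at least 9.34-fold to at least 92.4-fold lower than Smchd1 del/del.

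The reads behind the extremes show the size of the gap. The intergenic peak at chr12:21950851-21951900, which holds the second of the paired sites above, had 0 reads in MommeD43-GFP, a geometric mean of 93.9 reads per library in Smchd1 del/del and 11.7 in control NSCs. Its values were -5.77 in MommeD43-GFP, 0.91 in Smchd1 del/del and -1.84 in control. The peak at chr12:27697351-27698250, the only one of the 17 beyond 25 Mb, had 0 reads in MommeD43-GFP, 80.4 reads in Smchd1 del/del and 12.8 in control NSCs. The Gm48398 promoter peak at chr12:18610501-18611400 had 0 reads in MommeD43-GFP, 68.9 in Smchd1 del/del and 13.6 in control NSCs. These 3 peaks were named after their values were seen, since the naming rule asked only for the range of such low peaks. In each, the null lay above control, while MommeD43-GFP was lowest by the choice of peaks. Peaks were called per genotype and merged, so a peak without MommeD43-GFP reads was called in control or the null. That favours a high value in one of them, so nothing is read from the order.

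**Figure D2:**
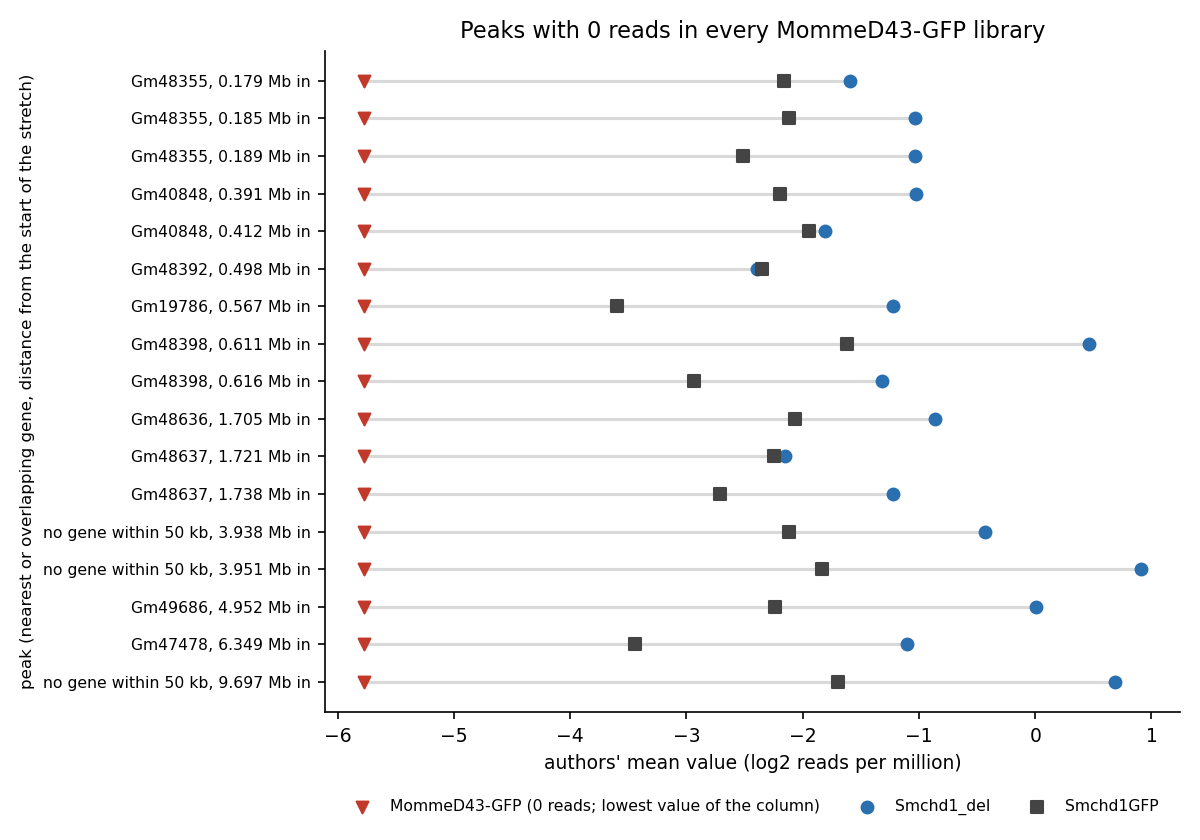
The authors' mean value (horizontal axis, log2 RPM) of the 17 peaks with 0 reads in every MommeD43-GFP library, in order along the stretch, each labelled by its gene and its distance from the start of the stretch. MommeD43-GFP (triangles) sits at -5.77 at each peak, and Smchd1 del/del (circles) lies above control (squares) at 16 of the 17. MommeD43-GFP is lowest by the choice of these peaks, which were called in control or the null.

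The control lines differed among themselves at these peaks. Each value is a mean of logs with 0 reads entered as 0.9, so low values can be turned back into the product of the library counts, and a factor of 0.9 shows that a library had none. At 14 of the 17 peaks, at least 1 control library had 0 reads, and at the other 3 the product allows either reading. Over the stretch this held for 22 of the 508 peaks low enough to decode (4.33%), beside 0.252% of decoded peaks in the whole table and 19 of 4566 (0.42%) on the rest of chromosome 12. Over the 22 peaks the median of MommeD43-GFP less control was -3.41 and that of Smchd1 del/del less control 1.52. Both differences use the same control values. At 8 of the 17, exactly 1 control library had 0 reads, and the other 2 held a geometric mean of 24.7 to 48.5 reads. At those 8 peaks Smchd1 del/del held 9.49 to 93.9 reads per library. A control value of this kind is thus pulled down by the line without reads. Which control line it was, and whether it was the same at each peak, cannot be read from pooled values. In Smchd1 del/del NSCs, none of the 838 peaks low enough to decode had a product that required a library at 0.

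Of the 95 lowered peaks, 42 lay in runs. A run was at least 3 consecutive peaks, each at least 2-fold lower than control. MommeD43-GFP NSCs had 8 such runs in the stretch, of 9 in the whole table. At the peaks flanking the 8 runs, MommeD43-GFP less control lay between -0.999 and 2.17. No run of at least 2-fold higher peaks was found there for MommeD43-GFP, of 9 in the table. Smchd1 del/del NSCs had 1 lowered run of 3 peaks near Gm48528 and 3 raised runs, of 8 and 36 in the table.

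The longest run spanned 228 kb, chr12:18388051-18616350, and held 11 peaks. Its values lay between -5.77 and -2.24 in MommeD43-GFP, between -2.40 and 0.90 in Smchd1 del/del and between -3.60 and -0.37 in control NSCs. It began at a Gm40848 promoter peak with -2.24 in MommeD43-GFP, -0.93 in Smchd1 del/del and -0.65 in control. The next 10 peaks were at or below -5.00 in MommeD43-GFP. The flanking peak before the run, near Gm40848, was at -1.14 in MommeD43-GFP, -2.40 in the null and -2.61 in control. The flanking peak after it, near Gm48409, was at -0.81 in MommeD43-GFP, -2.06 in Smchd1 del/del and -1.26 in control, so MommeD43-GFP was the highest genotype at both ends.

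The only protein-coding gene annotated within this run is 5730507C01Rik (18514510 to 18535254, plus strand). Its promoter peak at chr12:18513751-18515700 was at -5.00 in MommeD43-GFP, 0.45 in Smchd1 del/del and -0.37 in control NSCs. That is 1.53 in MommeD43-GFP, 68.2 in Smchd1 del/del and 32.3 in control in reads per library. The difference of MommeD43-GFP from control, -4.64 (counting error 0.69), was the furthest below among peaks of the stretch with MommeD43-GFP reads. At peaks with 0 reads only a bound can be given. The promoter holds the single-copy motif site printed above, and 10.8% of its 75-base words have another exact copy in the genome. The Gm48398 peak with a core motif, chr12:18605401-18606450, was at -5.67 in MommeD43-GFP, 0.15 in Smchd1 del/del and -1.75 in control, and no control library was at 0 there.

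**Figure D3:**
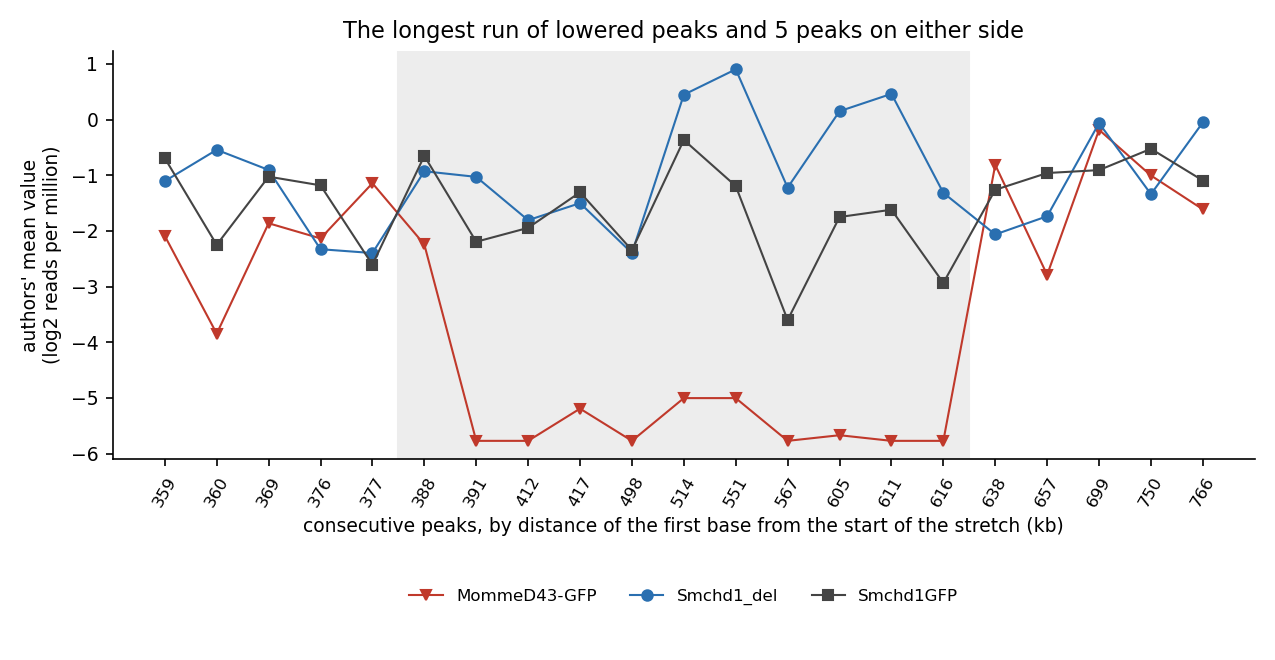
The authors' mean value (vertical axis, log2 RPM) at the 11 consecutive peaks of the longest lowered run (grey) and 5 peaks on either side, in order along the chromosome. MommeD43-GFP lies at or below -5.00 at 10 of the 11 peaks, where control spans -3.60 to -0.37, and is back at -0.81 at the first peak after the run.

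The other 7 lowered runs held 3 to 6 peaks each. The run at chr12:18177901-18190350 held 5 peaks in 12.4 kb around the pseudogene Gm48355, with -5.77 to -5.00 in MommeD43-GFP, -1.59 to -1.001 in Smchd1 del/del and -3.04 to -2.12 in control. It ended before a peak at Bnip3l-ps, where MommeD43-GFP (-2.40) and control (-2.39) were level and the null was at -0.84. Runs at chr12:19616851-19651500 (3 peaks), chr12:19704751-19745400 (5 peaks) and chr12:19759951-19842000 (6 peaks) followed each other closely. Between the first pair of them a peak near Gm48635 was at 0.50 in MommeD43-GFP, 0.26 in Smchd1 del/del and 0.38 in control. A run of 4 peaks from chr12:22519051 to 23011200 took in every peak of a 492 kb interval, with -5.77 to -4.09 in MommeD43-GFP, -0.69 to 0.52 in Smchd1 del/del and -2.24 to -1.24 in control. The last 2 runs lay at chr12:21889501-21951900 (3 peaks) and chr12:24304801-24391350 (5 peaks).

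By position, lowered peaks were most frequent in the first 2 Mb and in the bins with the fewest peaks. From 18 to 25 Mb, 78 of 480 peaks (16.2%) were at least 2-fold lower in MommeD43-GFP than in control, and from 25 to 28 Mb, 17 of 415 (4.1%). The bin from 18 to 19 Mb had 24 lowered peaks of 67 (35.8%) and a median difference of -0.53, and that from 19 to 20 Mb had 19 of 62 (30.6%) and a median of -0.07. From 22 to 23 Mb there were only 4 peaks, of which 3 were lowered. From 25 to 26 Mb there were 3 lowered peaks of 145, with a median of -0.08. The bin from 27 to 28 Mb held 8 of 129, among them 2 neighbouring peaks at which the MommeD43-GFP values were -5.09 and -5.77.

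**Figure D4:**
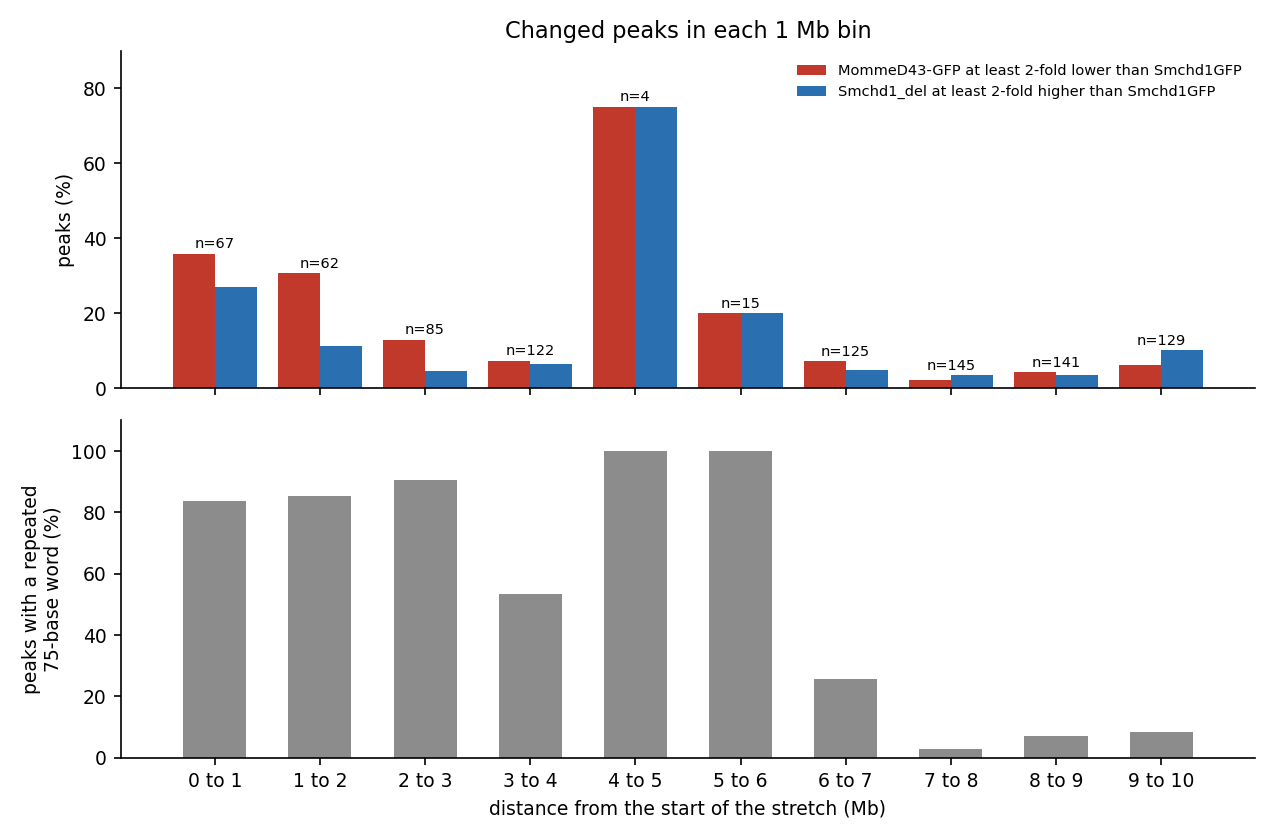
Share of peaks (vertical axis, %) in each 1 Mb bin, by distance from the start of the stretch (Mb). The upper panel gives peaks at least 2-fold lower in MommeD43-GFP (left bars) and at least 2-fold higher in Smchd1 del/del (right bars) than in control, with the number of peaks above, and the lower panel peaks with a 75-base word found elsewhere in the genome. The first 2 bins hold 35.8% and 30.6% lowered peaks and over 80% peaks with repeated words.

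Repeated sequence was more frequent at the lowered peaks. By bin, the shares of peaks with repeated words and of lowered peaks were both lowest from 25 to 28 Mb. From 25 to 26 Mb, 2.76% of peaks held repeated words and 2.07% were lowered. From 18 to 19 Mb these shares were 83.6% and 35.8%, and from 20 to 21 Mb 90.6% and 12.9%. The reads were 75 bases long, and 75 of the 95 lowered peaks (78.9%) had at least 1 word of that length with another exact copy in the genome, beside 252 of the other 800 peaks (31.5%) and 18.2% on the rest of chromosome 12. From 18 to 25 Mb the shares were 91.0% of 78 lowered and 57.5% of 402 other peaks. From 25 to 28 Mb they were 23.5% of 17 and 5.28% of 398. In the 17 peaks without MommeD43-GFP reads the median share of repeated words was 12.5%, so most words were unique, and 2 of the 17 had none that was repeated. Lowered peaks were also short and low, with a median length of 450 bp and a median control value of -1.24, beside 750 bp and -0.69 at the other peaks. Their median GC content was 49.7%, beside 48.1%. Among the 568 peaks of the stretch with no repeated word, MommeD43-GFP lay at least 2-fold below control at 20, beside 0.718% of all peaks. It lay at least 2-fold above control at 14 of the 568, beside 2.08% of all peaks. The shares over all peaks include peaks with repeated words. The reference had no assembly gap in any of the 10 bins. The part of mapping at repeated sequence in these differences was not tested.

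Of the 95 lowered peaks, 60 were intergenic (63.2%), 18 lay at a promoter (18.9%) and 17 in a gene body (17.9%). At the other 800 peaks these shares were 53.9%, 9.0% and 37.1%. The core CTCF motif was found in 5 lowered peaks (5.26%) and 14 others (1.75%), beside 3.79% of all peaks in the table. The relaxed motif was found in 18 (18.9%) and 99 (12.4%), beside 17.0% of all peaks. None of the 17 peaks without reads held the core motif and 3 held the relaxed one.

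The recurring sites put the same letters in several peaks, but each value belongs to the whole peak and is not divided by length. The first Asap2 promoter peak is 1050 bp long, the internal one 2850 bp and the Gm49692 peak 6150 bp. The Gm49692 peak holds 2 relaxed motifs. In all, 7 peaks held the 14-copy site of the Asap2 promoters. Their values ran over -5.72 to 3.36 in MommeD43-GFP, -0.69 to 3.66 in Smchd1 del/del and -2.35 to 3.60 in control NSCs, and 4 of the 7 were at least 2-fold lower in MommeD43-GFP. At the first Asap2 promoter (chr12:20989501-20990550) the values were -1.42 in MommeD43-GFP, 1.66 in Smchd1 del/del and 0.44 in control. At the internal promoter (chr12:21110551-21113400) they were 3.36 in MommeD43-GFP, 3.66 in Smchd1 del/del and 3.60 in control. The 10-copy site lay in 5 peaks, with 2 of them at 0 reads in MommeD43-GFP and another, in a Gm49692 intron (chr12:20277601-20283750), at 3.11 in MommeD43-GFP, 1.78 in Smchd1 del/del and 2.18 in control. Both peaks with the Gm48641 site were lowered. That near Gm48641 was at -3.85 in MommeD43-GFP, 0.51 in Smchd1 del/del and -0.99 in control, and the other, near Gm49764, at -5.14 in MommeD43-GFP, -1.31 in Smchd1 del/del and -3.44 in control. Among peaks with a motif site found more than once in the stretch, 12 of 40 were lowered in MommeD43-GFP. Among peaks with a site found once, 6 of 80 were, beside 0.718% of all peaks. Position differs between these sets, since the sites found more than once lay mostly before 25 Mb. Lowered peaks made up 16.2% from 18 to 25 Mb and 4.1% from 25 to 28 Mb. The part of copy number of the site was not tested. The bases are those of the reference, and whether the lines carry them was not examined here.

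Smchd1 del/del NSCs lay below control at 481 of the 895 peaks (53.7%), which is near the share over all peaks (53.4%). The median of Smchd1 del/del less control was -0.06 over the stretch and -0.04 over all peaks. At least 2-fold higher values were found at 72 peaks of the stretch (8.04%), beside 3.31% of all peaks, and at least 2-fold lower values at 40 (4.47%), beside 1.85%. Of the 72 higher peaks, 17 had at least 1 control library at 0. At the 17 peaks without MommeD43-GFP reads, Smchd1 del/del less control had a median of 1.49. This comparison uses the same control values as that of MommeD43-GFP. The 17 peaks also entered the merged set through calls in control or the null, so nothing is read from their median. At least 4-fold higher values were found at 14 peaks, beside 0.281% of all peaks, among them a peak near Gm9231 (chr12:18349051-18350100) at -2.95 in MommeD43-GFP, 1.28 in Smchd1 del/del and -1.22 in control. No control library was at 0 at this peak.

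At the 95 lowered peaks the medians were -2.48 for MommeD43-GFP less Smchd1 del/del, -1.83 for MommeD43-GFP less control and 0.24 for Smchd1 del/del less control, and each pair of these shares a genotype. MommeD43-GFP was at least 2-fold lower than Smchd1 del/del at 105 peaks of the stretch (11.7%), beside 1.08% of all peaks, and at least 2-fold higher at 38 (4.25%), beside 1.26%. At least 4-fold lower values were found at 55 peaks of the stretch, beside 0.0673% of all peaks. The opposite order was seen at 5 consecutive peaks in and beside Gm49692 (chr12:20250601-20283750), where MommeD43-GFP lay between 0.58 and 3.11, Smchd1 del/del between -0.92 and 1.78 and control between -0.12 and 2.18. This was the only raised run of the stretch between the mutants, of 7 in the table.

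Of the 330 peaks whose mean over the 3 genotypes reached the median of all peaks, 8 were at least 2-fold lower in MommeD43-GFP than in control (2.42%), beside 0.0585% of all peaks at that level. The furthest below was the first promoter of Asap2, which codes for a GTPase-activating protein of Arf proteins in membrane traffic, with a difference of -1.86 (counting error 0.22). An intron of Kidins220, a membrane scaffold of neurotrophin receptors, followed with -1.34 in MommeD43-GFP, 0.59 in Smchd1 del/del and 0.35 in control (difference -1.69, counting error 0.22). The peak near Gm4036 was at 0.04 in MommeD43-GFP, 2.63 in Smchd1 del/del and 1.32 in control. A 3110053B16Rik promoter peak was at 0.26 in MommeD43-GFP, 1.89 in Smchd1 del/del and 1.39 in control. A peak far from any gene at chr12:27490351-27491250 was at -1.07 in MommeD43-GFP, -0.14 in Smchd1 del/del and 0.16 in control. Peaks at Gm5784, Gm48896 and Gm48895 differed by -1.09, -1.08 and -1.04, and the remaining 2 of the 10, near Gm28503 and Id2, by -0.79 and -0.71. In the upward direction 2 of the 330 passed 2-fold (0.606%), beside 0.41% of all peaks at that level. They lay near Gm48644 (0.71 in MommeD43-GFP, 0.03 in Smchd1 del/del and -0.90 in control) and at the Gm48667 promoter (1.57 in MommeD43-GFP, -0.38 in Smchd1 del/del and 0.52 in control). The 8 next were 0.83 to 0.99 above control, among them peaks near Gm10330, Gm16372, Rrm2 and Gm9318.

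In Smchd1 del/del NSCs the 5 furthest above control among these peaks lay near 3110053B16Rik (1.53), near Gm4036 (1.31), near Gm4166 (1.22), at the first Asap2 promoter (1.21) and in Gm9866 (1.10). The 5 furthest below lay in an intron of Rnf144a (-1.15), near Gm48528 (-1.07), at Gm9269 (-1.06), in Gm49692 (-1.04) and in Gm9866 (-1.004). Rnf144a codes for an E3 ubiquitin ligase, and its intronic peak was at 0.86 in MommeD43-GFP, -0.12 in Smchd1 del/del and 1.03 in control.

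The tallest control peak of each 1 Mb bin was close in the genotypes in 9 of 10 bins, with MommeD43-GFP less control between -0.24 and 0.19. These included peaks of Gm49692 (4.16 in MommeD43-GFP, 3.95 in Smchd1 del/del and 4.35 in control), Grhl1 (4.102 in MommeD43-GFP, 4.27 in Smchd1 del/del and 4.21 in control), Id2 (2.39 in MommeD43-GFP, 2.46 in Smchd1 del/del and 2.61 in control) and Rnf144a (3.15 in MommeD43-GFP, 3.28 in Smchd1 del/del and 3.10 in control). The exception was the bin from 22 to 23 Mb, whose tallest peak, near Gm47997 (chr12:22519051-22519500), was at -4.09 in MommeD43-GFP, -0.54 in Smchd1 del/del and -1.66 in control.

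Peaks at the protein-coding genes listed by function were counted in the gene body or within 10 kb. Of 169 peaks at the 7 genes of membrane traffic and signalling, 4 were at least 2-fold lower in MommeD43-GFP than in control (2.37%, beside 0.718% of all peaks). At least 2-fold higher values were found at 2 of the 169, beside 2.08% of all peaks, and the median over the 169 was -0.09. None of the 43 peaks at the 5 transcription genes passed 2-fold in either direction in MommeD43-GFP (median -0.16), nor any of the 26 at the 4 genes of RNA and nucleotide metabolism (median -0.01), the 13 at the interferon genes Rsad2 and Cmpk2 (0.12) or the 15 at Cys1, which codes for a protein of the primary cilium (0.00). Sets of this size would hold few or no such peaks at the shares over all peaks, so nothing is read from these absences. At genes named Gm or Rik, 58 of 388 peaks were lowered (14.9%), and 12 of the 17 peaks without reads were among the 388.

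A promoter peak was found for 14 of the listed genes, and the tallest in control was taken for each, which at Asap2 is the internal promoter. MommeD43-GFP less control ran over -0.77 to 0.17 at these 14 peaks, and Smchd1 del/del less control over -0.48 to 0.56. The promoter of Rrm2, the small subunit of ribonucleotide reductase, was at 4.08 in MommeD43-GFP, 4.33 in Smchd1 del/del and 4.15 in control, with the single-copy core site printed above. That of Adam17, which sheds membrane-bound growth factors and cytokines, was at 1.64 in MommeD43-GFP, 1.86 in Smchd1 del/del and 1.83 in control. That of Sox11, a transcription factor of neural progenitors and young neurons, was at 1.13 in MommeD43-GFP, 1.44 in Smchd1 del/del and 1.53 in control. The furthest below control among the 14 was that of Taf1b, a subunit of the RNA polymerase I selectivity factor, at -1.20 in MommeD43-GFP, -0.45 in Smchd1 del/del and -0.43 in control (difference -0.77, counting error 0.23). That of Cpsf3, the endonuclease of pre-mRNA 3′ end formation, was at 1.47 in MommeD43-GFP, 2.41 in Smchd1 del/del and 2.03 in control. That of Mboat2, a lysophospholipid acyltransferase, was at 0.85 in MommeD43-GFP, 1.21 in Smchd1 del/del and 1.48 in control.

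The annotation lists 22 protein-coding genes in the stretch, beside 87 processed and 48 unprocessed pseudogenes and 32 long intergenic non-coding RNAs. The values used here hold no measure of the genomic DNA of the lines, and the input of 1 control line has no value. The paper also reports Hi-C of NSC lines of the MommeD43-GFP and control genotypes. It reports genome sequencing of mice with the ENU-induced MommeD43 allele as well. Neither was used here. At 33 of the 895 peaks the value required at least 1 MommeD43-GFP library at 0 reads, beside 0 of 10023 on the rest of chromosome 12. The stretch was chosen for such peaks. At the peaks without reads, the parts of missing or altered sequence in the lines and of absent CTCF binding were not tested. At peaks with reads, a different copy number and different binding cannot be told apart in these values.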

How the data were processed

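CTCF ChIP-seq libraries were made by the authors with the ChIP-IT High Sensitivity kit. Per the labels, reads were processed with Trim Galore 0.4.4, cutadapt 2.9, FastQC 0.11.8, Bowtie2 2.3.4.1, SAMtools 1.7 and R 4.2.0 on build GRCm38.p5. Reads were extended by 180 bp, and peaks were called per genotype in SeqMonk and merged. The unit deposited by the authors is log2 RPM (reads scaled to 1 M reads in a library), averaged across libraries within each genotype, with no division by peak length. The methods give default settings for mapping, under which Bowtie2 places a read with equal matches at 1 of them at random, and whether such reads were filtered later is not given in the sources used here.

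Differences are log2 values subtracted. The designed fit over libraries needs a column per library, so the form written for pooled columns, with no test, was used. Low values were decoded into products of counts of at most 20000 (within 0.02 of whole, 0 entered as 0.9), which worked for each such value. Decoding and run finding were tested on simulated data. Folds against 0 reads use a floor of 3 reads over the genotype. Promoters lie within 1 kb of a GENCODE M21 start, and the nearest start within 50 kb names an intergenic peak. Core and relaxed CTCF motifs were searched on both strands, and each core match is also a relaxed one. A word of 75 bases counts as repeated if GRCm38.p6 holds another exact copy.

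Peaks named are those with 0 MommeD43-GFP reads (by range where low), the 10 furthest either way in MommeD43-GFP (5 in the null) whose level reaches the median, the tallest control peak per Mb, promoters of listed genes, and run ends. Peaks named for a motif site or their place in a run of the null were chosen after their values were seen. The stretch, members, lists and rules were chosen with earlier results of these data known. Alternatives were other scalings, thresholds, pseudocounts and filters. Work was done in Python 3.11.15 with matplotlib 3.10.9, statsmodels 0.14.6, scipy 1.17.1, pandas 2.3.3 and numpy 2.4.6.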

Additional observations from a re-analysis of the deposited data

How the results depend on the processing

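Pooled values give no error between lines, low peaks rest on few reads, and leaving out single libraries was not run because the table has 1 column per genotype. No paired analysis was possible because the columns carry no replicate numbers. Counts of peaks below follow the order lower, then higher, for MommeD43-GFP against control, then Smchd1 del/del against control, then MommeD43-GFP against Smchd1 del/del. The values reported were 95 and 32, 40 and 72, and 105 and 38.

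At 1.5-fold the counts were 185 and 86, 141 and 142, and 171 and 102. At 4-fold they were 43 and 1, 0 and 14, and 55 and 3. With only the peaks whose level reached the median they were 8 and 2, 5 and 7, and 14 and 9, and the median of MommeD43-GFP less control was -0.0600. With a pseudocount of 1 they were 0 and 0, 0 and 4, and 15 and 3, and that median was -0.0440. A pseudocount of 1 exceeds the linear value of most of these peaks. With a pseudocount of 0.1, 13 peaks were higher in MommeD43-GFP than in control, 12 lower and 43 higher in Smchd1 del/del than in control, and 22 higher in MommeD43-GFP than in the null. With the trend on level removed, 17 peaks were higher in MommeD43-GFP than in control, and the median between the mutants was -0.0782. Centring on GC content gave -0.0606 for that median, and 0.00314 for Smchd1 del/del less control, whose sign turned, as it did on centring columns (0.00413). Without peaks holding a repeated 75-base word, an alternative chosen after seeing the data, 568 peaks remained, with 20 and 14, 10 and 24, and 31 and 6, and a median of -0.0600 for MommeD43-GFP less control.

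Runs of 2 consecutive peaks numbered 15 lowered and 1 raised for MommeD43-GFP against control, 4 and 8 for Smchd1 del/del against control, and 15 and 7 between the mutants. At 1.5-fold, 2 raised runs were found for MommeD43-GFP against control, 6 lowered and 6 raised for Smchd1 del/del against control, and 13 lowered and 5 raised between the mutants. With GC-centred differences the lowered run of Smchd1 del/del was lost, leaving 0. At most 3 reads over the libraries were found at 23 peaks in MommeD43-GFP, and at 0 in either other genotype. Leaving out peaks with a control library at 0, also chosen after seeing the data, moved no count by over 1.5 times. In all, 78 values lay within 1.5 times the reported count or within the 95% interval of the reported median across peaks. The counts with at most 3 reads were among them. A further 52 values lay outside these limits, and 2 medians lay outside with their sign turned. The 52 include counts at other fold thresholds and counts over fewer peaks, which change with the setting itself. The interval treats peaks as independent and holds no spread between lines.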
